A study of Homo sapiens with 6 samples.

Results

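The amino acid transporters described here are 10 genes of the solute carrier (SLC) families, chosen by name from the 58302 genes listed for each library: SLC7A11, SLC7A5, SLC7A1, SLC7A6, SLC3A2, SLC1A4, SLC1A5, SLC38A1, SLC38A2 and SLC43A1. All 10 were found, each under 1 gene identifier, and all 10 passed the filter on low values. Their RNA levels were measured by sequencing in HCCLM3, an established human line of hepatocellular carcinoma. The cells were transfected with an antisense oligonucleotide (ASO), a synthetic nucleic acid designed to bind 1 RNA by base pairing. The Control ASO and the SCARNA13 ASO group, whose ASO targets the small Cajal body-specific RNA SCARNA13, held 3 libraries each. The labels name no genotype and no dose or time of transfection, and all libraries come from the same line. Separate cultures are not stated for them, and the spread that p-values are set against may therefore be technical.

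Amino acid carriers move cystine, neutral and cationic amino acids across the plasma membrane. SLC3A2 (4F2hc, CD98) is a glycoprotein heavy chain that joins SLC7 light chains and brings them to the cell surface, where the light chain does the transport as an exchanger. Several carrier genes are textbook targets of the transcription factor ATF4, which acts when amino acids run short or protein folding is disturbed, and carriers such as SLC7A5 and SLC1A5 are often abundant in liver tumours.

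The cystine carrier gene SLC7A11 rose after SCARNA13 ASO in the fit that pairs libraries by replicate number, 1.45-fold, and was the only member of the 10 that passed there (limma adjusted p = 0.0412). SLC1A4, a carrier of alanine, serine, cysteine and threonine, followed at 1.27-fold (adjusted p = 0.0525) and the leucine carrier gene SLC7A5 at 1.19-fold (adjusted p = 0.0823), neither of them past the threshold of 0.05. SLC7A6 stood 14.4% lower (adjusted p = 0.140). The remaining 6 members lay between -7.32% and 7.0%, with adjusted p of 0.429 to 0.827. In the fit without pairing, 0 of the 10 members passed, all with an adjusted p of 1.00.

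Those values have a background. The paired fit, which corrects each library for GC content and takes the replicate number as a block, called 526 of 10104 genes, or 5.21%, of which 3.06% of all genes tested were higher and 2.15% lower. Of the 10 members, 1 was called. At an unadjusted p under 0.05 the paired fit had 3167 genes, or 31.3%, and 4 of the 10 members. All its calls, those of the gene lists below included, were lost without the intensity trend and without the filter on low values, where 0 genes passed. On simulated data it made more false calls than its threshold implies, which bears on every adjusted p from it near 0.05. The fit without pairing, limma-trend on log2(FPKM + 0.5) as deposited, called 0 of 10120 genes (0%), with 173 genes, or 1.71%, at an unadjusted p under 0.05 and 0 of the members among them. The block without GC correction called 0 genes, with 2598 (25.7%) and 3 of the 10 members (SLC7A11, SLC1A4 and SLC7A6) at an unadjusted p under 0.05. FPKM stands for fragments per kilobase of gene, scaled to library size, and log2 fold changes on this scale understate the change of low genes. The median log2 fold change of the members was 0.036 in the paired fit and 0.020 without pairing, against 0.00026 and -0.025 over all genes tested.

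Libraries of replicate 3 stood apart in both groups, and every level below has to be read with that. Read totals assigned to genes ran from 20457474 to 25173559 per library. Any replicate 3 library paired with one of another number gave a correlation of log2 levels over genes of 0.90 to 0.939, and the remaining pairs gave 0.980 to 0.994. The genes richest in GC (62.8% or more) had a median log2 level, relative to the 6-library mean, of 1.05 in Control ASO 3 and 0.76 in SCARNA13 ASO 3, against -0.39 to -0.50 in the other 4 libraries. SCARNA13 itself rested on 13 reads in the controls and 7 after SCARNA13 ASO, too few to check the labels. Its host transcript SNHG10 was lower in every treated library, at 3.05, 3.55 and 4.40 FPKM against 4.43, 4.50 and 6.36 FPKM (exact two-sided permutation test, p = 0.1, the smallest that 3 against 3 libraries allow). Of all genes tested, 29.6% were lower in 3 of 3 replicate numbers, and in 8.44% the groups did not overlap, in either direction. Of 10 hepatocyte markers only SERPINA1 averaged at least 1 FPKM (2.06), and ALB, APOB, APOC3 and FGB were listed at 0 in all 6 libraries. Of 5 epithelial markers, KRT8, KRT18 and KRT19 were abundant, while EPCAM averaged 0.0555 FPKM and CDH1 was listed at 0 in all 6 libraries. The summed level of 4 endothelial markers was 0.0554 to 0.106 FPKM in controls and 0.0433 to 0.0703 after SCARNA13 ASO, with KDR at 0. That of 5 fibroblast markers was 4.79 to 6.29 and 4.93 to 7.69 FPKM, nearly all from COL3A1, with the other 4 each averaging under 1 FPKM. That of 5 immune markers was 2.87 to 6.85 and 2.25 to 3.27 FPKM, nearly all from CD14, with CD3E and LYZ at 0.

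The members lie on 7 chromosomes. On GRCh38, SLC7A11 (ENSG00000151012) spans 138164097 to 138242349 on the minus strand of chromosome 4. SLC3A2 (ENSG00000168003) spans 62856102 to 62888875 on the plus strand of chromosome 11, which also holds SLC43A1 (ENSG00000149150) at 57484534 to 57515786 on the minus strand. Chromosome 16 holds SLC7A5 (ENSG00000103257) at 87830023 to 87869488, minus, and SLC7A6 (ENSG00000103064) at 68264516 to 68301823, plus. SLC38A1 (ENSG00000111371) at 46183063 to 46270017 and SLC38A2 (ENSG00000134294) at 46358189 to 46372867 are neighbours on the minus strand of chromosome 12. SLC1A4 (ENSG00000115902) spans 64988477 to 65023865 on chromosome 2, plus, SLC1A5 (ENSG00000105281) 46774883 to 46788594 on chromosome 19, minus, and SLC7A1 (ENSG00000139514) 29509410 to 29595688 on chromosome 13, minus. Levels were counted over the exons of each gene, from 3332 bases in SLC1A5 to 10015 in SLC38A1.

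Promoter windows, from 250 bases before to 50 after an annotated start, were taken from RefSeq on GRCh38.p14, and 9 of the 10 members had at least 1, with 16 windows in all. SLC7A11 had none, so its promoter was not searched for any of the short words below. The windows were searched on both strands for TGATGNAA, the core of the C/EBP-ATF response element that ATF4 binds, where N is any base. The stretches below are shown because SLC1A4 was among the members with the highest fold changes and because the same core was found in 5 of the 9 members. Capitals mark the core, written as it reads along the gene's strand, so that in SLC1A4 and SLC3A2 it appears as its reverse complement.
SLC1A4, chr2:64989381-64989410, plus: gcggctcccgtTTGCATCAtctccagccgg
SLC1A5, chr19:46784893-46784922, minus: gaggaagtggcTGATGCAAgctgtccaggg
SLC3A2, chr11:62881719-62881748, plus: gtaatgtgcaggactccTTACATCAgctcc
SLC7A1, chr13:29595663-29595692, minus: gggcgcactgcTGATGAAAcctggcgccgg
SLC38A1, chr12:46266502-46266531, minus: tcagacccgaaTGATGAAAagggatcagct

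The core began 7 bases before the start in SLC1A4, 97 before it in SLC1A5 and 4 before it in SLC38A1, and 7 bases after it in SLC7A1 and 37 after it in SLC3A2. Only the SLC7A1 start is the 5′ end of the gene in the files, and the others lie inside the gene, by 922 bases in SLC1A4, 3780 in SLC1A5, 3501 in SLC38A1 and 25597 in SLC3A2. Of all RefSeq genes with a window, 4.46% held this core in at least 1 window, and of the 21 genes with a window in a list of ATF4 response genes other than carriers, 5 did (23.8%). A match is a description of letters and not a bound site: of the 5 members with a core, the fold change in the paired fit was 1.27 for SLC1A4 and between 0.983 and 1.03 for the other 4.

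The members also differed in another short word, the E-box CACGTG, which MYC and related factors bind and which 8.77% of RefSeq genes held. It was found in SLC7A5, SLC1A5 and SLC43A1. The SLC7A5 stretch is shown because this was the most abundant member. The 250 bases before its start are 79.6% G or C, with the E-box in capitals 130 bases before the start.
SLC7A5, chr16:87869508-87869757, minus: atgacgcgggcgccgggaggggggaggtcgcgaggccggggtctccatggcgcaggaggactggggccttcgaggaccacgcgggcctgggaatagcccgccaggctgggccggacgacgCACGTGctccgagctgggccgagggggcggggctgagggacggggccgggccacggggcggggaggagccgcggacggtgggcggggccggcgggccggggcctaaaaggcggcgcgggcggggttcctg

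The third word, TGACNNNGC, is the core of the antioxidant response element bound by NRF2, and 16.1% of RefSeq genes held it. It was found in SLC7A5, SLC7A1, SLC7A6, SLC3A2 and SLC1A5. None of these letters says anything about the factor in these cells.

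Levels of the 10 genes spanned more than 2 orders of magnitude. In controls, SLC7A5 averaged 249 FPKM ± 164 (SD, n = 3), SLC3A2 184 ± 152 and SLC1A5 153 ± 103. SLC38A2 followed at 31.3 FPKM ± 14.3, SLC7A1 at 28.0 ± 4.10, SLC38A1 at 11.9 ± 4.84 and SLC1A4 at 7.32 ± 3.02. SLC7A6 at 2.69 FPKM ± 0.322, SLC7A11 at 2.28 ± 0.908 and SLC43A1 at 1.12 ± 0.422 were lowest. Neighbours in this order whose control ranges did not overlap were SLC1A5 and SLC38A2, SLC7A1 and SLC38A1, and SLC1A4 and SLC7A6. The other neighbours overlapped, and SLC7A6 was above SLC7A11 only in control replicate 3. After SCARNA13 ASO the mean of SLC7A11 was above that of SLC7A6, with overlapping ranges. Together the members took 0.270% to 0.340% of the reads in controls and 0.290% to 0.388% after SCARNA13 ASO.

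**Figure D1:**
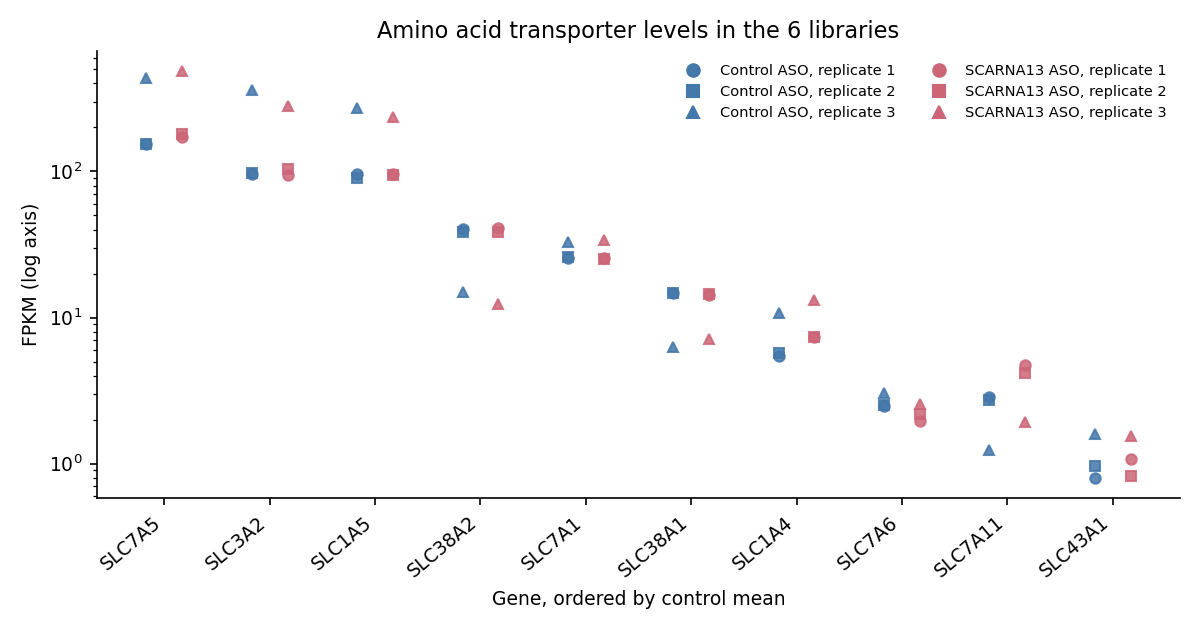
FPKM of the 10 members on a log axis, ordered by control mean, with Control ASO in blue, SCARNA13 ASO in red and the replicate number as the marker shape. Replicates 1 and 2 lie together and the triangles of replicate 3 lie above them for SLC7A5, SLC3A2 and SLC1A5 (438 against 154 FPKM for SLC7A5 in controls) and below them for SLC38A2, SLC38A1 and SLC7A11.

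The large SDs came from replicate 3, and the direction of its shift differed between members. Relative to the mean of replicates 1 and 2, the control library of replicate 3 held 3.73 times as much SLC3A2, 2.91 times as much SLC1A5 and 2.85 times as much SLC7A5. It held 0.375 times as much SLC38A2, 0.428 times as much SLC38A1 and 0.441 times as much SLC7A11. The SCARNA13 ASO library of replicate 3 held 2.82, 2.49 and 2.76 times as much of the first set and 0.313, 0.50 and 0.433 times as much of the second. The first set has a GC content of 57.4% to 61.3% and the second of 35.4% to 41.3%, and SLC7A11, at 35.4%, has a lower GC content than all but 1.33% of the genes tested. Across the 10 members, GC content and the log2 shift of replicate 3 correlated at 0.89 in controls and 0.90 after SCARNA13 ASO (Pearson; Spearman 0.81 and 0.82), a description over genes that share the same libraries.

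**Figure D2:**
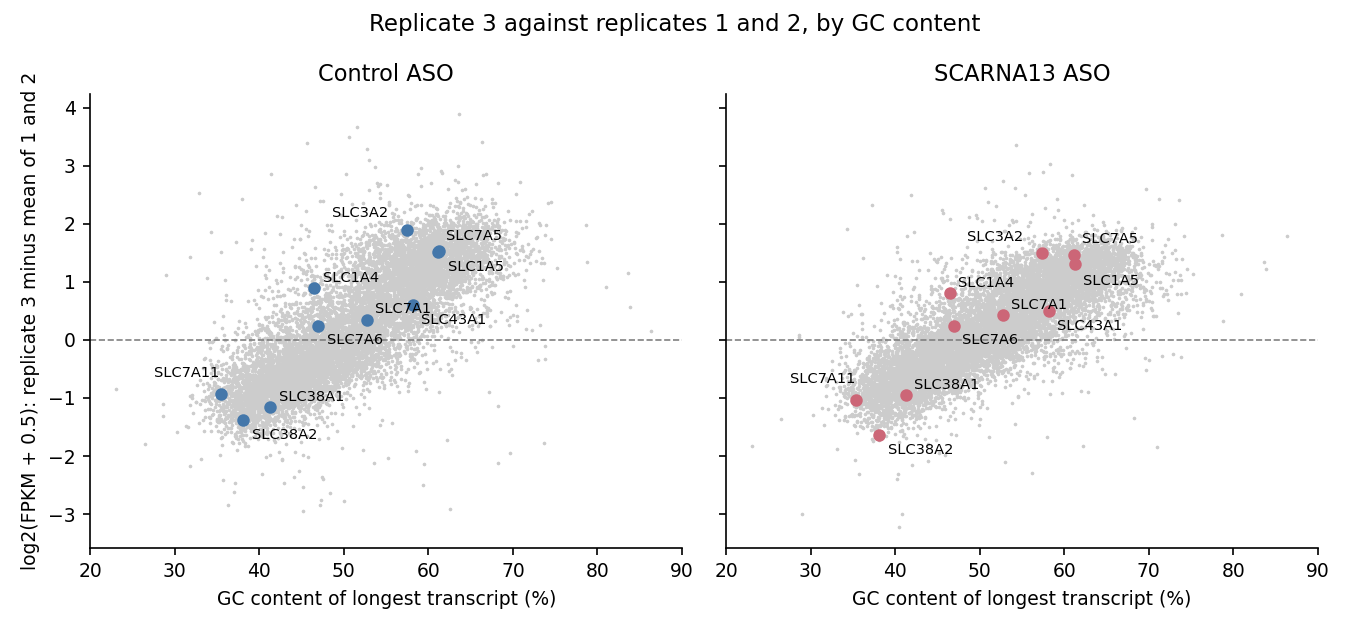
Difference in log2(FPKM + 0.5) between replicate 3 and the mean of replicates 1 and 2 (y axis) against the GC content of each gene's longest transcript in percent (x axis), for Control ASO on the left and SCARNA13 ASO on the right. Grey points are the 10104 genes tested with a known GC content and coloured points the 10 members, which run from SLC38A2 (-1.38 in controls) to SLC3A2 (1.89).

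SLC7A11 (xCT) is the light chain of the cystine and glutamate exchanger, which brings in cystine for glutathione synthesis. It measured 2.88, 2.73 and 1.24 FPKM in controls and 4.77, 4.19 and 1.94 FPKM after SCARNA13 ASO, listed by replicate 1, 2 and 3 here and below. Each treated library was above the control library of its number, but the ranges of the groups overlapped, because treated replicate 3 lay below control replicates 1 and 2. The ratio was 1.65 in replicate 1 (95% counting interval 1.52 to 1.81), 1.54 in replicate 2 (1.40 to 1.69) and 1.57 in replicate 3 (1.29 to 1.92), from 1701 control and 2692 treated reads in all. Counting intervals are exact, rest on reads recovered from the FPKM values and cover counting error only.

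With GC correction and the replicate block the log2 fold change of SLC7A11 was 0.54 ± 0.083 (SE, n = 3; limma adjusted p = 0.0412), and without them it was 0.56 ± 0.40 (adjusted p = 1.00). In replicates 1 and 2 alone, on deposited values, it was 0.59 ± 0.081 (adjusted p = 0.0263), where 9.11% of all genes passed. The block without GC correction left it at 0.56 ± 0.080 (adjusted p = 0.0677). The blocked, GC-corrected call was lost without replicate 1 (0.48, adjusted p = 0.159) and without replicate 2 (0.53, adjusted p = 0.157) and kept without replicate 3 (0.59, adjusted p = 0.0315). It was also lost without the intensity trend (adjusted p = 0.0688) and without the filter on low values (adjusted p = 0.183). Across all settings the adjusted p ran from 0.0263 to 1.0. The log2 fold change was positive in 24 of 24 settings, but without pairing its size rested on replicate 3, at 0.25 without the Control ASO library of that number and 0.90 without the SCARNA13 ASO library. The exact two-sided permutation test of SLC7A11 on FPKM, which ignores replicate numbers, gave p = 0.3. Exons of the antisense gene SLC7A11-AS1 cover 865 of its 9645 exonic bases, and that gene averaged 0.0722 FPKM.

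**Figure D3:**
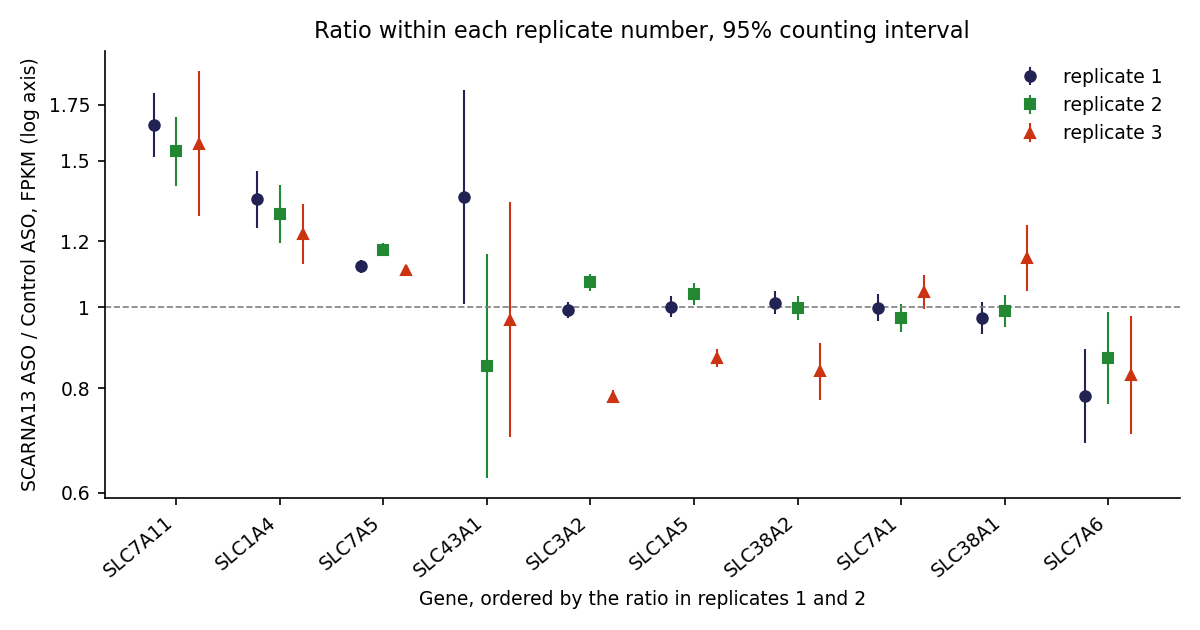
Ratio of FPKM in SCARNA13 ASO to Control ASO within each replicate number (log axis), with exact 95% counting intervals, for the 10 members ordered by their ratio in replicates 1 and 2. All 3 ratios are above 1 for SLC7A11, SLC1A4 and SLC7A5 and below 1 for SLC7A6, and for SLC3A2, SLC1A5 and SLC38A2 replicate 3 lies below both other ratios.

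SLC3A2, the shared heavy chain, did not follow SLC7A11. Its level was 95.4, 97.5 and 359 FPKM in controls and 94.7, 105 and 281 FPKM after SCARNA13 ASO. The ratio was 0.993 in replicate 1 (95% counting interval 0.970 to 1.02), 1.07 in replicate 2 (1.05 to 1.10) and 0.782 in replicate 3 (0.768 to 0.796), so the replicate numbers disagreed in direction by more than counting error. Its log2 fold change was -0.024 ± 0.067 in the paired fit (limma adjusted p = 0.827) and -0.088 ± 0.68 without pairing.

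SLC7A5 (LAT1), the light chain that exchanges glutamine for leucine and other large neutral amino acids, was the most abundant member in every library. It measured 154, 154 and 438 FPKM in controls and 172, 180 and 486 FPKM after SCARNA13 ASO, higher in each of the 3 numbers. The ratios were 1.12 (95% counting interval 1.10 to 1.14), 1.17 (1.15 to 1.2) and 1.11 (1.09 to 1.13). The paired fit gave 0.25 ± 0.066 on the log2 scale (SE, n = 3; limma adjusted p = 0.0823), the fit without pairing 0.18 ± 0.60, and replicates 1 and 2 alone 0.20 ± 0.045 (adjusted p = 0.0586). SLC7A5 passed in 0 of 25 settings, in which its adjusted p ran from 0.0569 to 1.0.

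Ratios between members of 1 library do not depend on its scaling, but they were not corrected for GC content. That content was 61.1% for SLC7A5 and 57.4% for SLC3A2, and 35.4% for SLC7A11 and 47.0% for SLC7A6. It was 61.3% for SLC1A5 and 46.5% for SLC1A4. The ratio of SLC7A5 to SLC3A2, both in FPKM, was 1.61, 1.58 and 1.22 in controls and 1.82, 1.73 and 1.73 after SCARNA13 ASO, so the groups did not overlap. The means were 1.47 ± 0.216 and 1.76 ± 0.0515 (SD, n = 3; exact two-sided permutation test, p = 0.1, the smallest that 3 against 3 libraries allow; adjusted p = 0.4 over the 4 ratios tested). Control replicate 3 lay lowest, and in replicates 1 and 2 the ratio was 1.61 and 1.58 against 1.82 and 1.73. SLC7A5 made up 96.2% to 99.1% of the summed level of the 6 light chains that pair with SLC3A2 (SLC7A5, SLC7A6, SLC7A7, SLC7A8, SLC7A10 and SLC7A11). The share of SLC7A11 was 1.81%, 1.71% and 0.279% in controls and 2.67%, 2.24% and 0.396% after SCARNA13 ASO.

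SLC7A6 (y+LAT2), a light chain that exchanges cationic for neutral amino acids, was lower in each number. It measured 2.48, 2.52 and 3.06 FPKM in controls and 1.95, 2.20 and 2.54 FPKM after SCARNA13 ASO, with only treated replicate 3 reaching into the control range. The ratios were 0.784 (95% counting interval 0.688 to 0.892), 0.870 (0.766 to 0.988) and 0.831 (0.706 to 0.978). The log2 fold change was -0.22 ± 0.081 in the paired fit (SE, n = 3; limma adjusted p = 0.140) and -0.23 ± 0.17 without pairing, and it was negative in 24 of 24 settings without passing in any of them. The neighbour SLC7A6OS, on the opposite strand, shares 3371 of the 7588 exonic bases of SLC7A6 (44.4%), and reads there cannot be told apart unless the counting used strand, which the sources used here do not state. SLC7A6OS stood at -0.28 ± 0.10 in the paired fit (adjusted p = 0.143). The ratio of SLC7A11 to SLC7A6 was 1.16, 1.08 and 0.404 in controls and 2.45, 1.91 and 0.763 after SCARNA13 ASO, higher in 3 of 3 numbers with overlapping groups (exact two-sided permutation test, p = 0.3; adjusted p = 0.4 over the 4 ratios).

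**Figure D4:**
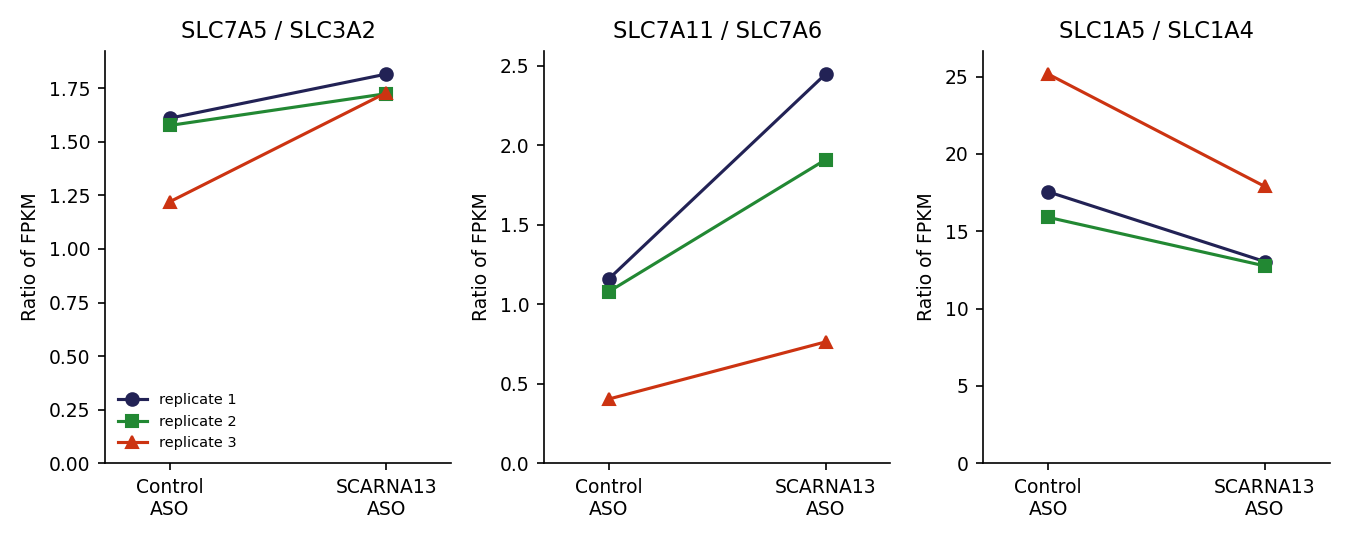
Ratios of FPKM between members of the same library (y axes, from 0) in Control ASO and SCARNA13 ASO, with lines joining libraries of the same replicate number. SLC7A5 to SLC3A2 is 1.22 to 1.61 in controls and 1.73 to 1.82 after SCARNA13 ASO, SLC7A11 to SLC7A6 is higher in each number, and SLC1A5 to SLC1A4 is lower in each number.

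SLC1A4 (ASCT1) and SLC1A5 (ASCT2) are sodium-dependent exchangers of neutral amino acids, and SLC1A5 is a main entry route for glutamine. SLC1A4 measured 5.45, 5.71 and 10.8 FPKM in controls and 7.35, 7.39 and 13.2 FPKM after SCARNA13 ASO, higher in each number, with ratios of 1.35 (95% counting interval 1.25 to 1.46), 1.29 (1.19 to 1.40) and 1.22 (1.13 to 1.33). Its log2 fold change was 0.34 ± 0.065 in the paired fit (SE, n = 3; limma adjusted p = 0.0525) and 0.34 ± 0.36 without pairing. It passed in replicates 1 and 2 alone (0.37 ± 0.054, adjusted p = 0.0273) and in the paired fit without replicate 3 (0.40, adjusted p = 0.0348), and in no other of its 25 settings, whose adjusted p reached 1.0. Without pairing, SLC1A4 stood at 0.64 without Control ASO replicate 3 and at 0.074 without SCARNA13 ASO replicate 3. The response element core printed above for SLC1A4 lies at an annotated start 922 bases inside the gene, and whether it bears on this level was not tested.

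SLC1A5 was far more abundant and showed no shared direction. It measured 95.7, 90.8 and 272 FPKM in controls and 95.8, 94.3 and 236 FPKM after SCARNA13 ASO, with ratios of 1.00, 1.04 and 0.870. The log2 fold change was 0.022 ± 0.047 in the paired fit (limma adjusted p = 0.777) and -0.048 ± 0.58 without pairing, so the sign depended on the fit. The ratio of SLC1A5 to SLC1A4 was 17.5, 15.9 and 25.2 in controls and 13.0, 12.8 and 17.9 after SCARNA13 ASO, lower in 3 of 3 numbers with overlapping groups (exact two-sided permutation test, p = 0.3; adjusted p = 0.4 over the 4 ratios). An unnamed antisense gene, AC008622.2, shares 780 of the 3332 exonic bases of SLC1A5 and averaged 0.551 FPKM.

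The sodium-coupled system A carriers SLC38A1 (SNAT1) and SLC38A2 (SNAT2), which bring in glutamine and other small neutral amino acids, hardly moved in replicates 1 and 2. SLC38A2 measured 40.4, 38.7 and 14.8 FPKM in controls and 40.9, 38.7 and 12.4 FPKM after SCARNA13 ASO, with ratios of 1.01 (95% counting interval 0.981 to 1.05), 0.999 (0.967 to 1.03) and 0.838 (0.775 to 0.907). SLC38A1 measured 14.6, 14.7 and 6.27 FPKM against 14.2, 14.5 and 7.19 FPKM, with ratios of 0.971 (0.930 to 1.01), 0.990 (0.948 to 1.03) and 1.15 (1.05 to 1.26). In replicate 3 these neighbouring genes of low GC content thus moved in opposite directions. The paired fit gave -0.11 ± 0.087 for SLC38A2 and 0.022 ± 0.058 for SLC38A1 (limma adjusted p = 0.429 and 0.817).

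SLC7A1 (CAT1), the main carrier of arginine and other cationic amino acids, varied least with the replicate number among the abundant members. It measured 25.4, 25.9 and 32.7 FPKM in controls and 25.4, 25.1 and 34.2 FPKM after SCARNA13 ASO, with ratios of 0.999, 0.972 and 1.04 and a log2 fold change of 0.049 ± 0.056 in the paired fit (limma adjusted p = 0.581). SLC43A1 (LAT3), a carrier of branched-chain amino acids and phenylalanine that needs no heavy chain, was close to the filter of 1 FPKM. It measured 0.801, 0.968 and 1.60 FPKM in controls and 1.08, 0.824 and 1.55 FPKM after SCARNA13 ASO, from 251 and 272 reads. Its ratios of 1.35 (95% counting interval 1.01 to 1.82), 0.852 (0.625 to 1.16) and 0.967 (0.700 to 1.34) were on both sides of 1.

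**Figure D5:**
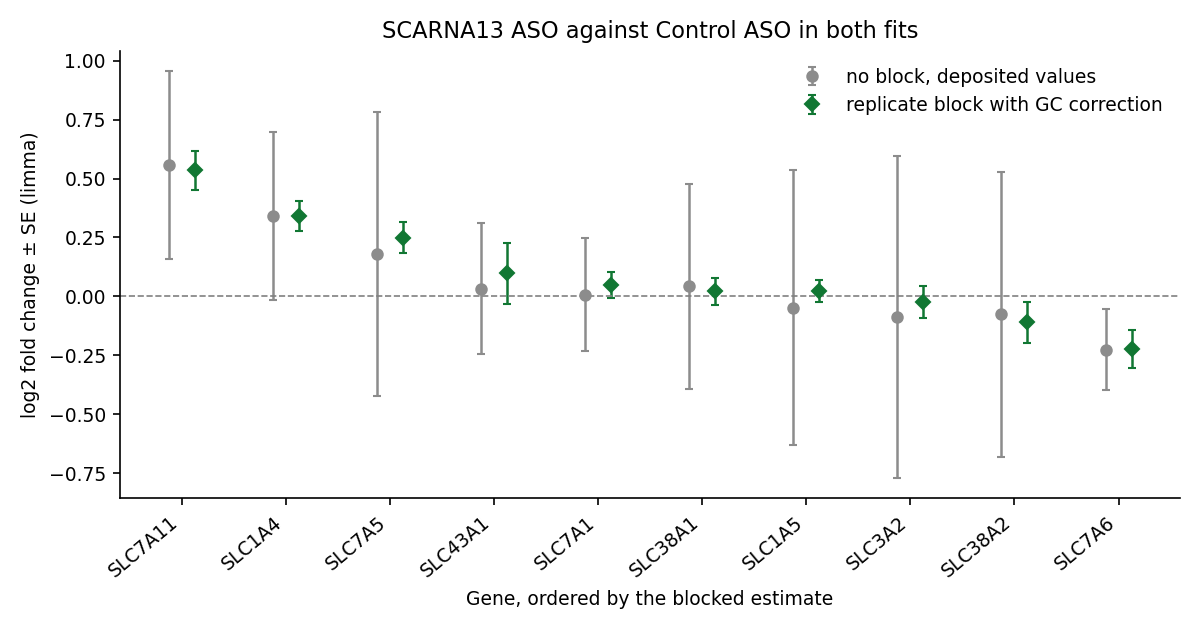
Log2 fold change ± SE (limma, n = 3 per group) of the 10 members in the fit without block on deposited values (grey) and in the fit with replicate block and GC correction (green). Estimates lie close together in both fits while the SE of SLC7A11 is 0.40 in the first and 0.083 in the second.

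Counted by direction, 3 of the 10 members (SLC7A11, SLC7A5 and SLC1A4) were higher after SCARNA13 ASO in 3 of 3 replicate numbers, where 23.9% of all genes tested were, and 1 (SLC7A6) was lower in all 3, where 29.6% were. In 0 of the 10 did the deposited FPKM ranges of the groups separate, against 8.44% of all genes. In replicates 1 and 2 alone, 2 of the 10 rose (SLC7A11 and SLC1A4), 0 fell and 8 did not pass, against a background of 4.52% higher and 4.59% lower. These shares describe the list and do not set it apart from other genes.

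Other amino acid carriers were mostly silent in this line. Of 39 further carrier genes in a list of the SLC1, SLC3, SLC6, SLC7, SLC16, SLC36, SLC38 and SLC43 families and of lysosomal carriers, 31 stayed under the filter and 8 were tested. In the paired fit 1 rose, 0 fell and 7 did not pass, with a median log2 fold change of 0.074, against 3.06% of all genes higher and 2.15% lower. In replicates 1 and 2 alone 1 rose and 2 fell, SLC36A1 and SLC43A3 (limma adjusted p = 0.0470 and 0.0468). There, 4.52% of all genes were higher and 4.59% lower. The gene that rose in the paired fit was SLC6A9, the glycine carrier GLYT1, 1.41-fold from 5.92 to 8.06 FPKM (limma adjusted p = 0.0380). SLC43A3 stood at -0.22 ± 0.055, SLC36A1, a proton-coupled carrier, at -0.25 ± 0.069 and SLC38A10 at 0.35 ± 0.094, each with an adjusted p of 0.0782 to 0.0863 in the paired fit.

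ATF4 response genes other than carriers were examined beside the members. Their list, like the members and the other lists, was chosen with earlier results of these data known, so its counts are a description only. Of 27 genes in that list, 23 were tested, of which 8 rose, 0 fell and 15 did not pass in the paired fit, with a median of 0.31, and 11 rose in replicates 1 and 2 alone. Over all genes tested, 3.06% were higher in the paired fit and 4.52% in replicates 1 and 2 alone. ATF4 itself rose 1.21-fold, from 190 to 220 FPKM (limma adjusted p = 0.0483). PHGDH, the first enzyme of serine synthesis, rose 1.36-fold (adjusted p = 0.0365), PYCR1, an enzyme of proline synthesis, 1.25-fold (adjusted p = 0.0411), and TRIB3, a pseudokinase that dampens ATF4 output, 1.51-fold (adjusted p = 0.0365). The other 4 were DDIT3, PPP1R15A, STC2 and SESN2. ASNS, the asparagine synthetase gene named in most accounts of this response, is named here after its values were seen. It measured 0.967, 0.919 and 1.90 FPKM in controls and 0.976, 1.12 and 0.967 FPKM after SCARNA13 ASO. Its lower treated mean, 1.02 against 1.26 FPKM, thus came from replicate 3. ASNS stood at -0.17 ± 0.21 in the paired fit (limma adjusted p = 0.614) and at 0.099 in replicates 1 and 2 alone. Without pairing, 0 of the 23 passed.

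Genes of the growth kinase complex mTORC1 and of its control, amino acid sensing included, numbered 31, of which 25 were tested. In the paired fit 3 rose, 0 fell and 22 did not pass, with a median of -0.030, against 3.06% of all genes higher and 2.15% lower. SESN2, a leucine sensor also counted in the ATF4 response list, rose 1.36-fold (limma adjusted p = 0.0365), TSC2, a brake on mTORC1, 1.3-fold (adjusted p = 0.0450), and NPRL3, a subunit of the GATOR1 brake, 1.29-fold (adjusted p = 0.0457). RPTOR, an mTORC1 subunit, stood at 0.33 ± 0.069 (adjusted p = 0.0584).

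Genes of cystine use, of glutathione metabolism and of the NRF2 response, its inhibitor included, were tested together beside SLC7A11. Of 14 in the list 13 were tested, 0 passed in the paired fit, and 2 of the 13 estimates were positive, with a median of -0.14. In replicates 1 and 2 alone, 1 rose (CHAC1, limma adjusted p = 0.0325) and 2 fell (CBS and GSR, adjusted p = 0.0238 and 0.0470). There, 4.52% of all genes were higher and 4.59% lower. In replicate 3 each went the other way after SCARNA13 ASO. CHAC1 was at 48.2 against 51.3 FPKM in the control, CBS at 3.65 against 1.82 FPKM and GSR at 15.3 against 12.6 FPKM. CHAC1, which breaks glutathione down and is an ATF4 target, stood at 0.36 ± 0.083 (limma adjusted p = 0.0667). NQO1, a target of NRF2, stood at -0.44 ± 0.16, KEAP1, the inhibitor of NRF2, at -0.20 ± 0.068 and NFE2L2, which encodes NRF2, at -0.18 ± 0.082, with adjusted p of 0.125 to 0.198. At an unadjusted p under 0.05, 3 of the 13 were found, where 31.3% of all genes were.

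Among 9 genes of glutamine and asparagine metabolism, 7 were tested and 0 passed, with 1 at an unadjusted p under 0.05 in limma, against 31.3% of all genes. That gene was GPT2, mitochondrial alanine transaminase, at 0.54 ± 0.12 (adjusted p = 0.0621). GLUD1 stood at -0.12 ± 0.051, GOT1 at 0.16 ± 0.070 and GOT2 at -0.11 ± 0.050. Of 6 transcription factors known to act on carrier genes, 5 were tested: DDIT3 and ATF4 rose, CEBPB stood at 0.31 ± 0.074 (adjusted p = 0.0696), NFE2L2 at -0.18 ± 0.082 and MYC at 0.086 ± 0.059 (adjusted p = 0.366). DDIT3 and ATF4 are also counted in the ATF4 response list, and 3.06% of all genes tested were higher in the paired fit.

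Likeness of pattern was measured by Pearson correlation over the 6 libraries. On log2(FPKM + 0.5), SLC7A11 was most like SUCLG2, DCDC2 and RHBDD1 (0.998, 0.994 and 0.994), SLC7A5 like NUDCD3 (1.00) and SLC3A2 like AES (1.00), and more than 900 of the 10119 other genes reached 0.9 for each of them. On this scale SLC7A5 correlated at 0.98 with SLC3A2 and -0.78 with SLC7A11, an order that the shift of replicate 3 shares. After GC correction and removal of the mean of each replicate number, SLC7A11 was most like KCTD15, GARS and CLASRP (each 1.00), and SLC1A4 was the member nearest to it, at 0.996, with SLC7A5 at 0.87, SLC7A6 at -0.94 and SLC3A2 at -0.10. On that corrected scale SLC7A5 correlated at -0.53 with SLC3A2, the reverse of its sign before. These values rest on 3 differences per gene and 1312 of 10103 genes reached 0.9 with SLC7A11, so they describe the pattern only.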

How the data were processed

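The 6 libraries were prepared from total RNA (TruSeq RNA kit, per the labels' protocols). The submitters' processing notes list TopHat2 2.0.9, Bowtie2 2.0.6 and hg19 without roles. Counter, annotation and strand setting: not given in the sources used here. Per gene and library, the authors deposited 1 FPKM value, a unit inferred from the values, beside gene length and position. Positions are those of GRCh38, since 56636 of 58039 identifiers (97.6%) had the same start and end in GENCODE 29. Value times length was a whole multiple of 1 step per library for 100% of values (tolerance 0.01 reads), so whole reads were recovered. The implied library size was 0.633 and 0.760 of the read total in replicate 3 of Control ASO and SCARNA13 ASO and 1.21 to 1.24 elsewhere, equal to median-of-ratios scaling. Replicates 1 and 2 were nearest to each other, yet differed beyond sampling noise in both groups (chi-square per degree of freedom 3.16 and 5.90, genes with 50 reads or more).

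The fit without pairing was limma-trend (limma 3.58.1, R 4.3.3) on log2(FPKM + 0.5), keeping genes that averaged 1 FPKM or more, with group as the only term, Benjamini-Hochberg adjusted p under 0.05, two-sided. The paired fit added the replicate number as a block, after a loess trend (span 0.5) of each library's deviation on GC content was subtracted. Each gene's GC content was that of its longest transcript in GENCODE 29. Deviations from group means correlated at 0.84, 0.78 and 0.91 between libraries of the same number, so numbers were taken as pairs. Crossed pairs of replicates 1 and 2 reached 0.81, so the values set apart only replicate 3. Both fits were tested on simulated data: the fit without a block recovered none of the changes, and the paired fit most of them with more false calls than its threshold implies. The simulation gave both libraries of each replicate number the same expected level, apart from the added changes, and kept the shift of replicate 3. Pairing was thus built in, so the simulation cannot decide between the fits. Permutation tests used scipy 1.17.1. Members and lists, the ATF4 response list included, were chosen with earlier results of these data known. Named genes are the members, all that pass in each list and up to 4 per list with the smallest p. Alternatives changed the pseudocount, the filter, the trend, the scaling and the libraries used. Protein sequences of the members were not analysed here, and 1 immune marker of the list is not reported here.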

Additional observations from a re-analysis of the deposited data

How the results depend on the processing

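With the replicate block and GC correction, 526 genes and 1 member (SLC7A11) passed, against 0 and 0 without them. In that paired fit a pseudocount of 0.1 or 1 gave 562 or 444 genes with 1 member each, while leaving out the intensity trend or the filter on low values gave 0 genes and 0 members. Leaving out 1 replicate number gave 0 to 763 genes (14 without replicate 1, 0 without replicate 2, 763 without replicate 3) and 0 to 2 members. Without pairing, replicates 1 and 2 alone gave 922 genes and 2 members, and leaving out any single library gave 0 genes.

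The median log2 fold change of the members was 0.020 in the unpaired fit. In the paired fit it was 0.036, also without the intensity trend and at a pseudocount of 1, and 0.038 at a pseudocount of 0.1. In the paired fit without replicate 1, 2 or 3 it was 0.040, 0.054 and 0.030. Of the unpaired alternatives, GC correction alone and replicates 1 and 2 alone gave 0.036, a mean of at least 5 FPKM 0.0064, limma-voom (upper-quartile scaling, since TMM was not available) 0.066, and scaling to read totals 0.11, which moved the median of all genes from -0.025 to 0.058. Without single libraries it ran from -0.13 to 0.24.

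Signs changed for 7 members, none of which passed in any setting. SLC1A5 turned positive in the paired fit, at 0.022 with and without the intensity trend. It stood at 0.024 and 0.020 there for pseudocounts of 0.1 and 1, but at -0.0024 without the filter on low values. Without pairing it turned positive with GC correction alone (0.022), scaled to read totals (0.052) and in replicates 1 and 2 (0.028). Scaled to read totals, SLC3A2 was at 0.012 and SLC38A2 at 0.021. In replicates 1 and 2, SLC3A2 was at 0.045, SLC38A2 at 0.0086, SLC7A1 at -0.021 and SLC38A1 at -0.027. Without single libraries the values ran from -0.31 to 0.68 for SLC7A5, -0.14 to 0.12 for SLC7A1, -0.54 to 0.47 for SLC38A2, -0.13 to 0.23 for SLC43A1, -0.59 to 0.54 for SLC3A2, -0.48 to 0.46 for SLC1A5 and -0.34 to 0.36 for SLC38A1. In the paired fit without 1 replicate number, SLC1A5 ran from 0.013 to 0.026, SLC43A1 from -0.0044 to 0.23, SLC3A2 from -0.081 to 0.048, SLC38A1 from -0.014 to 0.054 and SLC38A2 from -0.17 to 0.0081. The cause of these sign changes was not tested. Without single libraries SLC7A11 ran from 0.25 to 0.90 and SLC1A4 from 0.074 to 0.64. SLC7A11 and SLC1A4 were higher, and SLC7A6 lower, in every setting run. With all 6 libraries, the block with GC correction changed the call of no member other than SLC7A11. Of the members, SLC43A1 had the fewest reads.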
